A study of Mus musculus with 13 samples.

Results

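The keratin genes of the mouse incisor were described across control, VDRgem and VDR-null teeth. Members were the genes with a mouse symbol of Krt followed by a digit, pseudogenes left out, that had at least 10 counts summed over the 13 libraries. They numbered 45 of 34709 genes in the count table, 24 of type I and 21 of type II. A further 7 keratin genes had fewer counts than that. Measured values played no part in the rule beyond this minimum count. The family itself was chosen with earlier results of these data known.

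RNA was sequenced from whole lower incisors of male mice at postnatal day 5. The 5 control libraries were wild type. The 3 VDRgem libraries came from mutants whose vitamin D receptor is known to answer synthetic gemini analogs and not the natural hormone. The 5 VDR-null libraries came from mice known to lack a working receptor. The labels name no strain, no littermate status and no treatment, so what the groups share beyond sex, age and tissue cannot be given here. Neither do they name the animal behind a library, and p-values therefore speak of differences among incisors only, which may be technical. Libraries are numbered 1 to 5 or 1 to 3 within a group, and these numbers do not pair libraries between groups.

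Keratins are the intermediate filament proteins of epithelial cells. Each filament is built from pairs of a type I and a type II keratin, and the pair in use tells the epithelium and its layer apart: Krt8 with Krt18 in simple epithelia, Krt5 with Krt14 in the basal layer of stratified epithelia, Krt1 with Krt10 above it in epidermis, Krt4 with Krt13 above it in oral lining mucosa, and Krt6 with Krt16 or Krt17 in wounded or fast-renewing epithelium. Filaments are anchored between cells by desmosomes and to the basement membrane by hemidesmosomes. In the tooth they are made by the dental epithelium, which includes the ameloblasts that lay down enamel, while the pulp and dentin-forming cells are mesenchymal and use vimentin. Gum and skin are much richer in keratin than the tooth.

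Total counts ran from 20405188 in control 2 to 87783466 in VDRgem 3. Markers of the labelled tissue were present in every library: 7 ameloblast genes summed to at least 14658 CPM (counts scaled to the size of each library) and 4 odontoblast genes to at least 16396 CPM. Vdr, the targeted gene, stood at 142 to 180 CPM in controls, at 107, 205 and 179 CPM in VDRgem and at 204 to 281 CPM in VDR-null. These totals run over whole genes and leave unseen which exons were read, so they do not check the genotype labels. CPM are scaled here by the trimmed mean of M-values, and fold changes are log2 values with their standard error (SE). They come from edgeR's quasi-likelihood test on all 13 libraries, which covered 17837 genes and 33 of the 45 members, and a gene was called at a Benjamini-Hochberg adjusted p under 0.05. The other 12 members had enough counts in too few libraries, and which members passed depended in part on the group where they were high. In whole-tooth RNA, fewer cells of a type and less RNA per cell cannot be told apart.

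In the mm10 assembly the members lay in a pair of clusters. The 23 type I genes other than Krt18 lay on chromosome 11 between 99232761 and 100269871. The 21 type II genes and Krt18 lay on chromosome 15 between 101347444 and 102032027, 3.44 to 4.12 Mb from Vdr, which is on the same chromosome. Genes called higher in VDRgem than in controls were found in both, 8 on chromosome 11 and 7 on chromosome 15, and both genes called lower were on chromosome 15. RefSeq promoter windows (GRCm38.p6, the mm10 assembly) of 250 bases before to 50 bases after the start were found for 33 of the 45 members. For Krt14, Krt7 and Krt8 the RefSeq start lay 1518, 1360 and 140 bases downstream of the GENCODE gene start. Another Krt13 window lay 989 bases downstream. All of these were kept in the counts. The letters TATAAA, the core of a TATA box, were read on either strand in 16 of these 33 genes and in 15.67% of all genes with a window, and ATAAAAG, a motif added after the sequences had been seen, in 11 of the 33 and in 6.324% of all. The AP-1 site TGANTCA occurred in 1 of the 33 genes, Krt13, against 8.973% of all, and the direct repeat of the nuclear receptor element AGNTCA with a 3-base spacer in 0 of the 33 against 0.08141%. Such matches are letters in a window and say nothing of a factor bound there. The 100 bases before the start are shown for 7 members whose levels are described below, on the minus strand and 5′ to 3′, with TATAAA or ATAAAAG, or their overlap, in capitals. They lie 26 to 30 bases before the start. The called members Krt14, Krt23, Krt24, Krt8 and Krt18 had neither motif on the gene's strand in that stretch and are not shown. Krt10 (chr11:99389365-99389464), Krt76 (chr15:101892921-101893020), Krt13 (chr11:100121567-100121666), Krt78 (chr15:101954288-101954387) and Krt5 (chr15:101712906-101713005) were called higher in VDRgem than in controls. Krt73 (chr15:101802361-101802460) and Krt28 (chr11:99374904-99375003) are shown because their levels divided the libraries in another way.
Krt10: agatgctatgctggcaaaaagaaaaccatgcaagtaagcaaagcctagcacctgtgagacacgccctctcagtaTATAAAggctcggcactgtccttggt
Krt76: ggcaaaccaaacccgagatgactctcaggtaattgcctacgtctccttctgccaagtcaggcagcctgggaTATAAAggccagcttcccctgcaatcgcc
Krt13: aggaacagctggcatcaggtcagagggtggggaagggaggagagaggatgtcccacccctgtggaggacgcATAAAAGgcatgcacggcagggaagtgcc
Krt78: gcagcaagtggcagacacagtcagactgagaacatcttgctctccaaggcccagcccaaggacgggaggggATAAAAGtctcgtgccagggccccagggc
Krt5: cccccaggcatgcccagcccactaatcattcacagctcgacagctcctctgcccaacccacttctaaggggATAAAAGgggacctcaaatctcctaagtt
Krt73: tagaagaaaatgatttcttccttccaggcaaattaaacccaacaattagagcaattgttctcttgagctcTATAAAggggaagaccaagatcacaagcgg
Krt28: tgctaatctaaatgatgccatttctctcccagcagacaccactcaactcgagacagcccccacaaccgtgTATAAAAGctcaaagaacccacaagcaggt

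Control incisors expressed keratins of the basal layer most. Per kilobase of exon, Krt5 led with 326 ± 84.4 CPM per kb (SD, n = 5), followed by its partner Krt14 with 242 ± 43.4 and by Krt17, a keratin of activated epithelium and skin appendages, with 95.4 ± 38.9. The control ranges of Krt5 and Krt14 overlapped, at 225 to 430 and 194 to 294 CPM per kb, and Krt17, at 51.6 to 145 CPM per kb, lay below both. Krt13, Krt15, Krt4 and Krt6a came next with means of 28.7, 24.4, 20.8 and 12.5 CPM per kb, but Krt13 ranged from 0.442 to 125 and Krt4 from 0.178 to 97.4 among controls, so the order of these 4 did not hold beyond their spread. Krt18, Krt80, Krt75 and Krt8 had means of 5.29, 5.00, 4.77 and 3.65 CPM per kb, and every other member averaged 2.40 or less. The keratin sum was 1095 to 1898 CPM in controls, of which Krt5, Krt14 and Krt17 together held 928 to 1686 CPM. The ratio of type II to type I in summed CPM was 1.14 to 1.31 in the 5 controls. These sums are not divided by exon length, which was 2197 bases for Krt5 and 1758 for Krt14. They therefore do not tell which type had more transcripts.

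VDRgem teeth differed from controls in 17 of the 33 keratin genes tested, 15 higher and 2 lower, where 8.62% of all 17837 genes were called, 4.8% higher and 3.82% lower. The higher ones were all 3 basal-layer keratins tested, 3 of 5 of suprabasal epidermis, 3 of 4 of oral mucosa, 3 of 4 of activated epithelium and 3 of 6 of simple epithelium. The 2 lower ones were Krt8 and Krt18, the simple-epithelium pair. The median log2 fold change of the 33 was 1.40, against 0.00 over all genes tested. The 3 VDRgem libraries were far from alike. Their keratin sum was 25263, 7361 and 1821 CPM in VDRgem 1, 2 and 3, so VDRgem 3 lay inside the control range of 1095 to 1898 CPM. Of the 15 members called higher, VDRgem 1 and VDRgem 2 lay above every control in 15 and VDRgem 3 in 8. The test that picked these 15 used the same libraries, so their positions are description and add no support. The share over all genes was not computed. Without VDRgem 1, 3 members were called, Krt1, Krt10 and Krt76, where 0.364% of all genes were, and without VDRgem 1 and 2 together 0 were called, where 0.0262% of all genes were. In that last fit VDRgem 3 stood alone and was assumed to vary like the other groups.

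**Figure D1:**
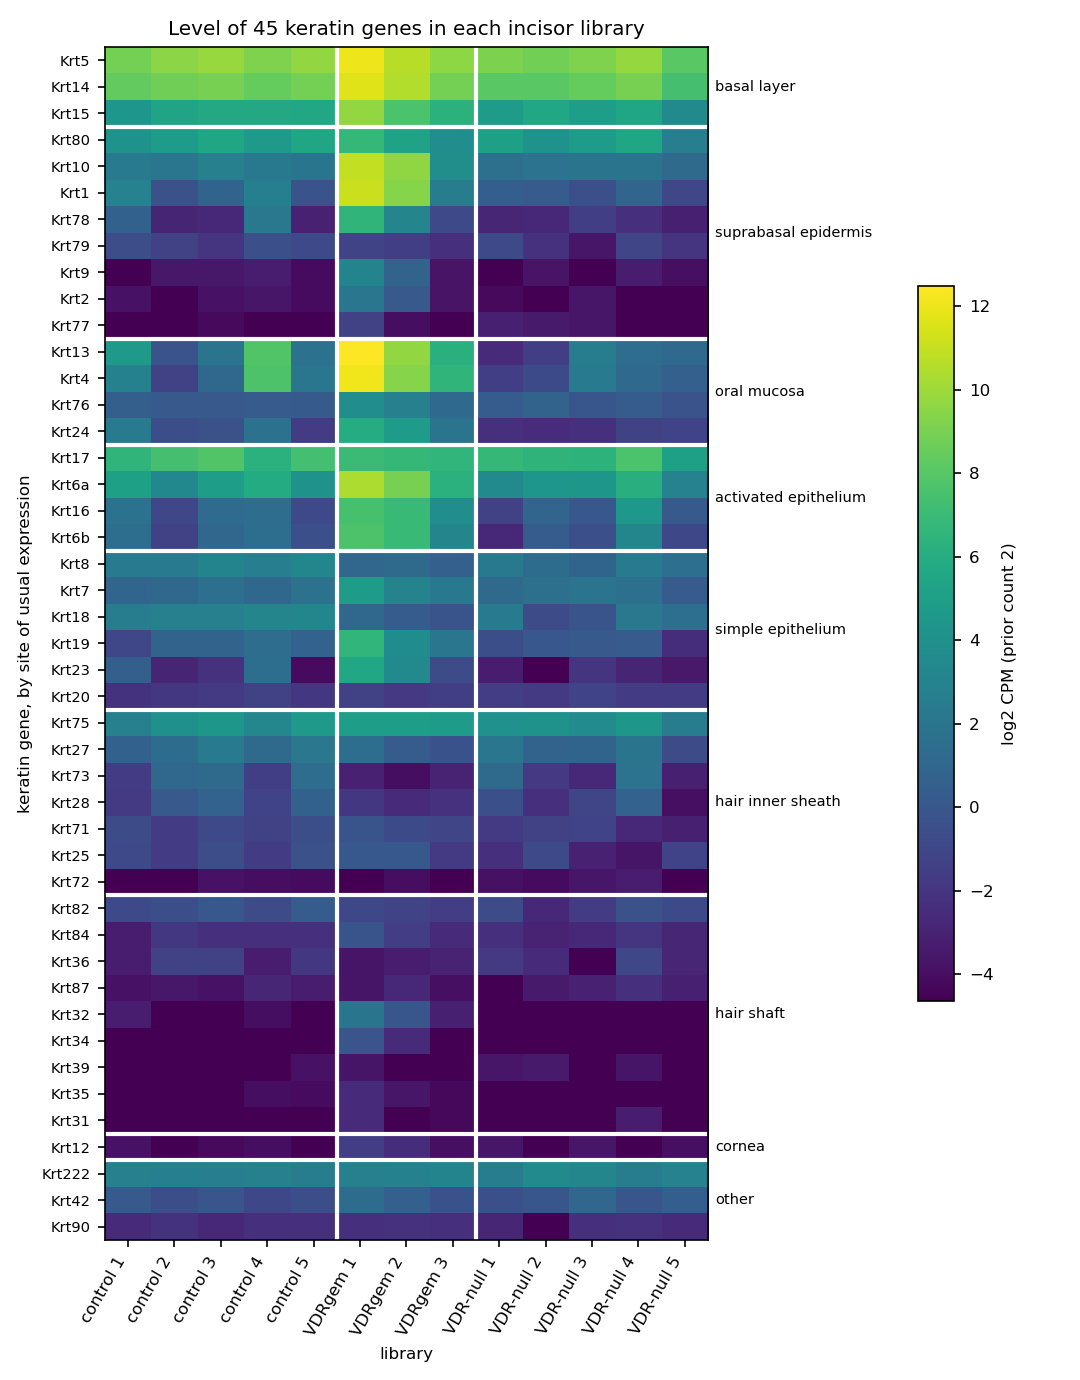
Colour gives the log2 CPM (prior count 2) of the 45 keratin genes, 1 line per gene grouped by the epithelium where it is usually found, in the 13 libraries. VDRgem 1 and 2 are bright in the suprabasal, oral mucosa and activated groups, while VDRgem 3 is less bright than either in the sums of these groups.

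Keratinocyte genes that are not keratins moved with the same libraries, while the summed ameloblast level stayed inside the control range. The 7 ameloblast genes summed to 46785, 54194 and 26564 CPM in VDRgem and to 14658 to 72090 CPM in controls. Of these 7, Odam and Klk4 were called higher in VDRgem than in controls, where 4.8% of all genes were. The 18 keratinocyte genes summed to 324 to 469 CPM in controls and to 253 to 453 CPM in VDR-null. In VDRgem 1, 2 and 3 they summed to 5001, 1519 and 468 CPM. Of the 17 tested, 16 were called higher in VDRgem than in controls, where 4.8% of all genes were. Without VDRgem 1 it was 1 of 17, beside the share of all genes given above for that fit. These marker lists were chosen with earlier results of these data known. The 8 skeletal muscle genes summed to 237, 44.1 and 25.6 CPM in VDRgem, to 5.29 to 25.8 CPM in controls and to 3.34 to 624 CPM in VDR-null, with VDR-null 3 highest. The 5 mesenchyme genes summed to 192537, 173036 and 181185 CPM in VDRgem, above the 96185 to 146236 CPM of controls. Col1a1 alone held 120674, 112289 and 115508 CPM of these VDRgem sums. Of the 5 genes 1 was called higher, Col3a1, where 4.8% of all genes were. Of the 10 hair follicle genes listed, 7 had a count row. They summed to 6.47 to 11.8 CPM in controls and to 20.9, 11.2 and 7.19 CPM in VDRgem. Of the 4 tested, Foxn1 and Hoxc13 were called higher in VDRgem than in controls, where 4.8% of all genes were. The hair shaft gene Krtap11-1 was at 0 in every library. Of the 5 salivary gland genes 4 were found and summed to no more than 3.53 CPM in any library, with Smr2 at 0 throughout. The 4 Merkel cell genes summed to 78.1, 91.4 and 98.8 CPM in VDRgem, below the 101 to 132 CPM of controls, and to 79.1 to 128 CPM in VDR-null. Atoh1, the defining Merkel cell gene, was at 0 in every control and VDR-null library and at no more than 0.022 CPM in VDRgem, and Sox2 was called higher in VDRgem than in controls. Of genes of the dental epithelium, Sp6 stood at 420, 460 and 415 CPM in VDRgem and 593 to 670 CPM in controls and was called lower, with -0.53 as its log2 value (edgeR adjusted p = 0.021, SE 0.12). Epcam, Cdh1 and Isl1 were not called, at -0.72, 0.06 and -0.17. The labels do not say whether gum or skin was collected with any of these teeth. The part of these cell types and tissues in the keratin differences, those of Krt8 and Krt18 included, was not tested.

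Among the basal-layer keratins all 3 rose in VDRgem. Krt5, the type II keratin of basal cells, stood at 494, 737, 945, 572 and 837 CPM in controls 1 to 5, at 4252, 1652 and 782 CPM in VDRgem 1 to 3 and at 562, 471, 576, 885 and 274 CPM in VDR-null 1 to 5. VDRgem 1 and 2 exceeded every control and VDRgem 3 lay among them, and the log2 fold change was 1.64 (adjusted p = 0.0329, SE 0.43). Krt14, its type I partner, stood at 340.4, 439.7, 516, 354 and 476 CPM in controls, at 3256, 1465 and 489 CPM in VDRgem and at 275, 272, 347, 517 and 173 CPM in VDR-null. The same 2 libraries exceeded every control, and VDRgem 3, at 489 CPM, lay below control 3; the log2 fold change was 2.03 (adjusted p = 0.0168, SE 0.43). Krt5 and Krt14 kept to one another, with Krt5 at 0.90 to 1.63 times Krt14 per kb over all 13 libraries. Krt15, a type I keratin of basal cells that also marks the epithelial stem cell region of the hair follicle, stood at 21.0, 42.1, 51.8, 52.1 and 48.3 CPM in controls, at 857, 196 and 84.6 CPM in VDRgem and at 27.4, 47.2, 29.8, 43.8 and 11.6 CPM in VDR-null. All 3 VDRgem values exceeded every control, with a log2 fold change of 3.14 (adjusted p = 0.0107, SE 0.58). Without VDRgem 1 the log2 fold changes of Krt5, Krt14 and Krt15 were 0.75, 1.19 and 1.69, with edgeR adjusted p = 0.333, 0.139 and 0.0860. Krt5 also missed the threshold without control 1, 2, 4 or 5.

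Of the 5 suprabasal epidermal keratins tested, 3 rose in VDRgem and 2, Krt79 and Krt80, were not called. Krt10, the type I keratin of differentiating epidermis, stood at 5.36, 4.17, 6.96, 4.89 and 4.05 CPM in controls, at 1963, 812 and 14.1 CPM in VDRgem and at 3.22, 3.71, 3.84, 3.82 and 2.34 CPM in VDR-null. All 3 VDRgem values exceeded every control, at 2.78 times the control mean in VDRgem 3 and 386 times in VDRgem 1, and the log2 fold change was 7.50 (adjusted p = 0.0041, SE 0.92). Krt1, its type II partner, stood at 7.68, 0.710, 1.77, 6.58 and 0.804 CPM in controls, at 2252, 681 and 5.98 CPM in VDRgem and at 1.36, 1.15, 0.687, 1.88 and 0.458 CPM in VDR-null. VDRgem 3 fell among the controls here, between control 3 and control 4, and the log2 fold change was 8.13 (adjusted p = 0.0076, SE 1.25). Without VDRgem 1 both were still called, at 6.32 for Krt10 and 6.62 for Krt1 with edgeR adjusted p = 0.00526 and 0.0264, and without VDRgem 1 and 2 neither was, at 1.46 and 0.76 with adjusted p = 0.149 and 0.821. limma-voom called Krt10 alone of the 5. Krt78, a type II keratin of upper layers, had 96.9, 8.80 and 0.513 CPM in VDRgem and 0.0804 to 4.72 CPM in controls, with a log2 fold change of 4.73 (adjusted p = 0.0342, SE 1.26); with VDRgem 3 as the lone VDRgem library it was -1.38. Krt2 and Krt9, keratins of late epidermal differentiation and of palm and sole skin, held 275 and 547 counts in all. Too few libraries held enough of them to pass the filter, so they were not tested in the main fit. Krt2 held 215, 49 and 3 counts in VDRgem and 0 to 2 in every other library, and Krt9 held 451, 79 and 3 counts against 0 to 3.

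The 4 oral mucosa keratins summed to 10345, 1568 and 175 CPM in VDRgem, to 2.89 to 440 CPM in controls and to 1.82 to 11.9 CPM in VDR-null. Krt13, the type I keratin of lining mucosa, stood at 25.0, 0.805, 3.86, 228 and 3.46 CPM in controls, at 5786, 857 and 75.4 CPM in VDRgem and at 0.129, 0.323, 5.74, 2.80 and 2.26 CPM in VDR-null. Control 4 and control 1 stood above the other controls, and VDRgem 3 lay below control 4. The log2 fold change was 5.42 (adjusted p = 0.0496, SE 1.59). Krt4, its type II partner, stood at 7.49, 0.379, 2.12, 208 and 4.16 CPM in controls, at 4484, 677 and 93.8 CPM in VDRgem and at 0.329, 0.538, 5.05, 2.33 and 1.48 CPM in VDR-null. It followed the same libraries and missed the threshold, with a log2 fold change of 5.30 (adjusted p = 0.0524, SE 1.57). Krt4 was 0.26 to 1.03 times Krt13 per kb in controls and 0.66 to 1.06 times in VDRgem. Krt13 was called in 9 of 23 other fits. Of the fits without 1 library, it was called only in those without control 4 or VDRgem 3. Krt4 was called in 6 of 23, among them the fits without control 4 and without VDRgem 3. Krt76, a type II keratin of the palate and gum, stood at 1.42, 1.04, 1.07, 1.18 and 1.13 CPM in controls, at 13.4, 7.04 and 2.27 CPM in VDRgem and at 1.20, 1.70, 0.929, 1.20 and 0.789 CPM in VDR-null. The 3 VDRgem values exceeded controls that spanned only 1.04 to 1.42 CPM, with a log2 fold change of 2.69 (adjusted p = 0.0076, SE 0.40), and of 1.97 without VDRgem 1 (edgeR adjusted p = 0.0337). Krt24, a type I keratin, stood at 5.03, 0.663, 0.711, 3.29 and 0.273 CPM in controls, at 62.0, 26.9 and 3.77 CPM in VDRgem and at 0.158, 0.143, 0.162, 0.369 and 0.407 CPM in VDR-null. VDRgem 3 lay below control 1, and the log2 fold change was 3.98 (adjusted p = 0.0153, SE 0.83).

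Of the 4 keratins of activated epithelium 3 rose and Krt17 was not called. Krt6a, the type II wound keratin, stood at 33.5, 10.2, 31.6, 59.2 and 16.8 CPM in controls, at 1369, 500.1 and 79.7 CPM in VDRgem and at 11.7, 20.7, 21.7, 68.7 and 7.86 CPM in VDR-null. All 3 VDRgem values exceeded every control, with a log2 fold change of 4.42 (adjusted p = 0.0107, SE 0.82). Krt6b, a near copy of it, stood at 2.84, 0.379, 1.95, 2.93 and 0.675 CPM in controls, at 206, 125 and 8.73 CPM in VDRgem and at 0.115, 1.22, 0.687, 9.42 and 0.483 CPM in VDR-null. All 3 VDRgem values exceeded every control, VDR-null 4 was higher than VDRgem 3, and the log2 fold change was 5.98 (adjusted p = 0.0107, SE 1.12). Krt16, the type I partner, stood at 3.55, 0.473, 2.50, 2.80 and 0.514 CPM in controls, at 179, 120.4 and 13.5 CPM in VDRgem and at 0.358, 1.90, 0.969, 22.2 and 1.07 CPM in VDR-null. Here too VDRgem exceeded every control, with a log2 fold change of 5.71 (adjusted p = 0.0151, SE 1.18), while VDR-null 4, at 22.2 CPM, was higher than VDRgem 3. Krt17 stood at 93.0, 172, 225, 80.1 and 169 CPM in controls, at 131, 111 and 101 CPM in VDRgem and at 108, 92.4, 85.7, 203 and 34.0 CPM in VDR-null. Its groups overlapped and its log2 fold change was -0.37 (adjusted p = 0.655, SE 0.43). Krt6a was 6.71, 2.89 and 0.51 times Krt17 per kb in VDRgem 1, 2 and 3 and 0.04 to 0.47 times in controls. Of the 50-base stretches in their transcripts, 45.5% for Krt6a, 50.1% for Krt6b and 37.6% for Krt16 also occur in another gene, mostly in Krt6b, in Krt6a and in the pseudogene Gm11597, so the division of counts between such copies is uncertain.

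**Figure D2:**
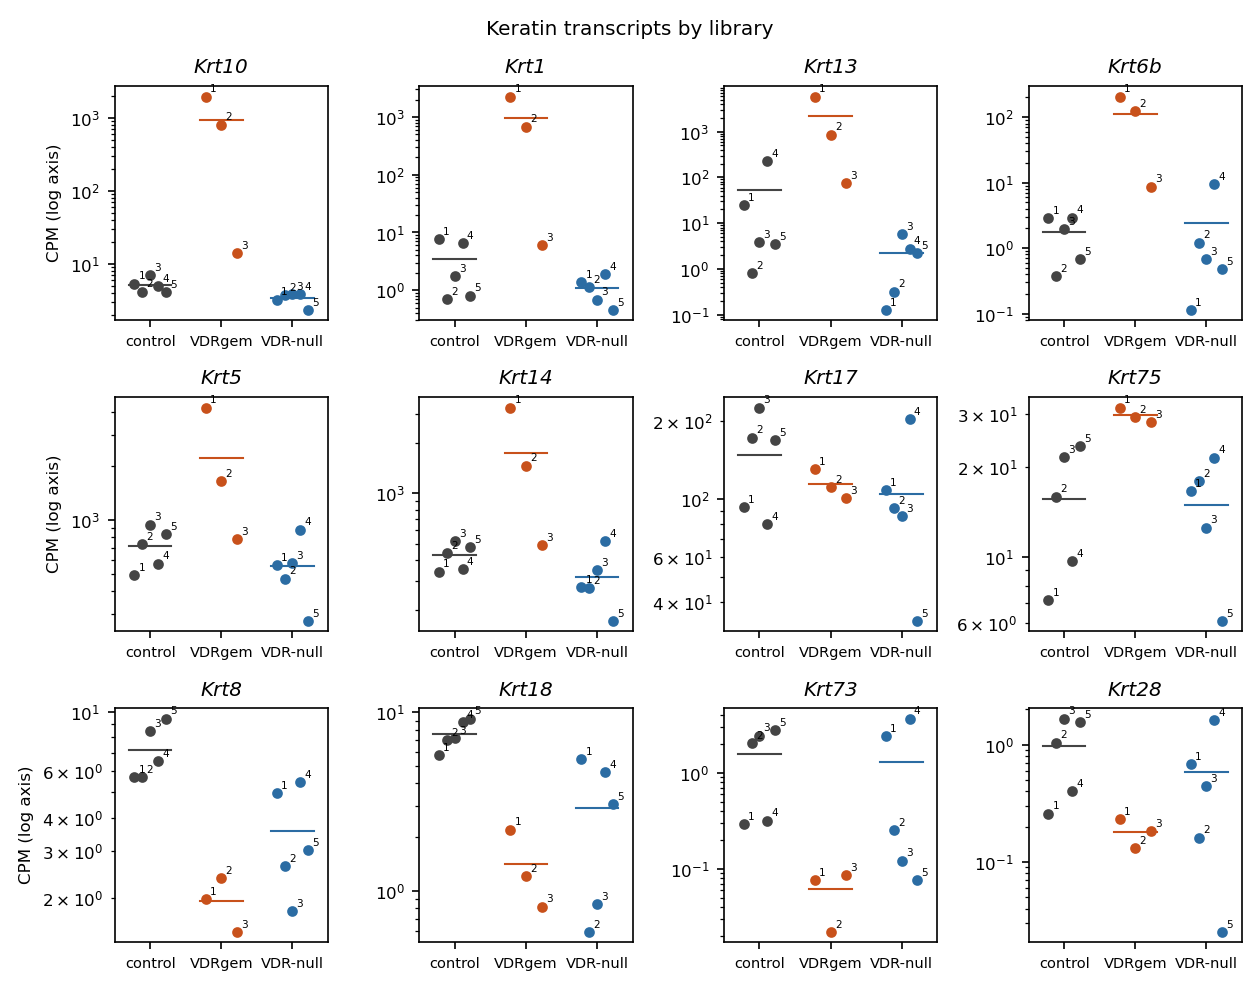
CPM of 12 keratin genes on log axes, 1 point per library labelled with its replicate number, with a horizontal line at each group mean (n = 5, 3 and 5). For Krt10 the 3 VDRgem points, at 14.1 to 1963 CPM, lie above all controls, for Krt17 the groups overlap, and for Krt8 the VDRgem points, at 1.49 to 2.38 CPM, lie below all controls.

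The simple-epithelium keratins went in both directions. Krt8, the type II keratin of simple epithelia, stood at 5.68, 5.68, 8.42, 6.53 and 9.40 CPM in controls, at 1.98, 2.38 and 1.49 CPM in VDRgem and at 4.94, 2.63, 1.78, 5.44 and 3.03 CPM in VDR-null. The 3 VDRgem values were alike and lay below every control, with a log2 fold change of -1.89 (adjusted p = 0.00982, SE 0.34). Krt18, its type I partner, stood at 5.78, 7.01, 7.18, 8.83 and 9.23 CPM in controls, at 2.21, 1.21 and 0.818 CPM in VDRgem and at 5.47, 0.591, 0.848, 4.62 and 3.05 CPM in VDR-null. Again every VDRgem value lay below every control, and the log2 fold change was -2.44 (adjusted p = 0.029, SE 0.62). Unlike the rises, these differences were as large in VDRgem 3 as in VDRgem 1: without VDRgem 1 they were -1.92 and -2.94, and with VDRgem 3 alone -2.28 and -3.23. The calls were lost in those smaller fits, at edgeR adjusted p = 0.0621 and 0.0843 without VDRgem 1 and 0.250 and 0.310 with VDRgem 3 alone. Krt8 was called in 21 of 23 other fits and Krt18 in 16. Krt18 missed the threshold without control 2, 4 or 5 and without any 1 VDRgem library. Krt8 shares 26.9% of its 50-base stretches with its processed pseudogene Krt8-ps, which had 23 counts in all libraries together.

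Krt19 and Krt7, both found in simple and ductal epithelia, rose instead. Krt19 stood at 0.452, 1.70, 1.69, 2.80 and 1.61 CPM in controls, at 99.7, 13.1 and 4.22 CPM in VDRgem and at 0.645, 0.968, 1.05, 1.16 and 0.153 CPM in VDR-null. All 3 VDRgem values exceeded every control, with a log2 fold change of 4.54 (adjusted p = 0.00982, SE 0.79). Krt7 stood at 1.87, 2.13, 3.05, 2.19 and 3.36 CPM in controls, at 28.6, 8.06 and 4.77 CPM in VDRgem and at 2.35, 3.12, 3.88, 3.11 and 1.17 CPM in VDR-null. All 3 VDRgem values again exceeded every control, with a log2 fold change of 2.44 (adjusted p = 0.0118, SE 0.47). Krt23 had 46.9, 12.0 and 0.598 CPM in VDRgem and 0.0161 to 2.85 CPM in controls, so VDRgem 3 lay among them, and its log2 fold change was 4.42 (adjusted p = 0.0303, SE 1.14). Like Krt78, it missed the threshold without control 1, 2, 3 or 5 or without VDRgem 1. Krt20, a keratin of gut lining and Merkel cells, had 0.242 to 0.364 CPM in VDRgem and 0.194 to 0.358 CPM in controls and was not called.

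None of the 9 hair follicle keratins tested was called against controls, 6 of the inner sheath and companion layer and 3 of the hair shaft. At an unadjusted p under 0.05 there were 4 (edgeR). Over all genes 19% passed that threshold together with an absolute log2 fold change over 0.3. DESeq2, which called 12.6% of all genes here, called Krt28 and Krt73 of these 9, both lower, and limma-voom, which called 5.5%, called 0. Krt75, a type II keratin of the companion layer that is also reported from enamel-forming epithelium, stood at 7.16, 15.9, 21.6, 9.69 and 23.5 CPM in controls, at 31.6, 29.4 and 28.3 CPM in VDRgem and at 16.6, 18.0, 12.5, 21.5 and 6.11 CPM in VDR-null. The VDRgem values were alike and all above the highest control, yet the log2 fold change was 0.93 (adjusted p = 0.144, SE 0.37), and none of 23 other fits called it. Krt73, an inner root sheath keratin, stood at 0.290, 2.04, 2.43, 0.316 and 2.78 CPM in controls, at 0.0767, 0.0220 and 0.0855 CPM in VDRgem and at 2.39, 0.251, 0.121, 3.65 and 0.0763 CPM in VDR-null. Controls 2, 3 and 5 and VDR-null 1 and 4 held 2.04 CPM or more, and the remaining 8 libraries, all VDRgem ones among them, held 0.316 CPM or less. The log2 fold change was -4.55 (adjusted p = 0.0595, SE 1.40), and 7 of 23 other fits called it, among them those without VDR-null 3, 4 or 5. Krt28, a type I keratin of the same sheath, had 0.132 to 0.230 CPM in VDRgem and 0.258 to 1.66 CPM in controls, with 1.04 CPM or more in controls 2, 3 and 5 and in VDR-null 4. The hair shaft keratins Krt31 and Krt35 held 11 and 12 counts over all libraries, 7 of them in VDRgem 1 in each case. Krt32 and Krt34, also of the hair shaft, held 211, 41 and 6 and 46, 6 and 0 counts in VDRgem 1, 2 and 3, against at most 2 and 0 counts in any other library, and were not tested.

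The remaining members tested were not called in VDRgem against controls. Krt80, a keratin of differentiating stratified epithelia, had 110.3, 38.3 and 13.8 CPM in VDRgem, above and below the 18.0 to 45.7 CPM of controls. Krt222 had 7.14 to 8.67 CPM in VDRgem, all above the highest control at 7.04 CPM, with a log2 fold change of 0.23 (adjusted p = 0.493, SE 0.19). Krt42 was 1.11 higher (adjusted p = 0.105, SE 0.40) and Krt82, of the hair shaft, had -0.98 (adjusted p = 0.231, SE 0.48) with VDRgem values below every control. Krt25, Krt27, Krt36, Krt71, Krt79 and Krt84 lay between -1.72 and 1.40, and their groups overlapped. Of the members with too few counts to test and not named above, Krt12, Krt39, Krt72, Krt77, Krt87 and Krt90 had 12 to 90 counts over all 13 libraries. Krt12, the keratin of the cornea, held 16 and 7 of its 33 counts in VDRgem 1 and 2. Several members overlap genes on the opposite strand, among them Krt80 with Gm35853 over 22719 bases (1169 counts) and Krt10 with Gm11940 over 558 bases (73 counts). The strand setting of the counting is not known here, so reads of such pairs could be mixed.

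**Figure D3:**
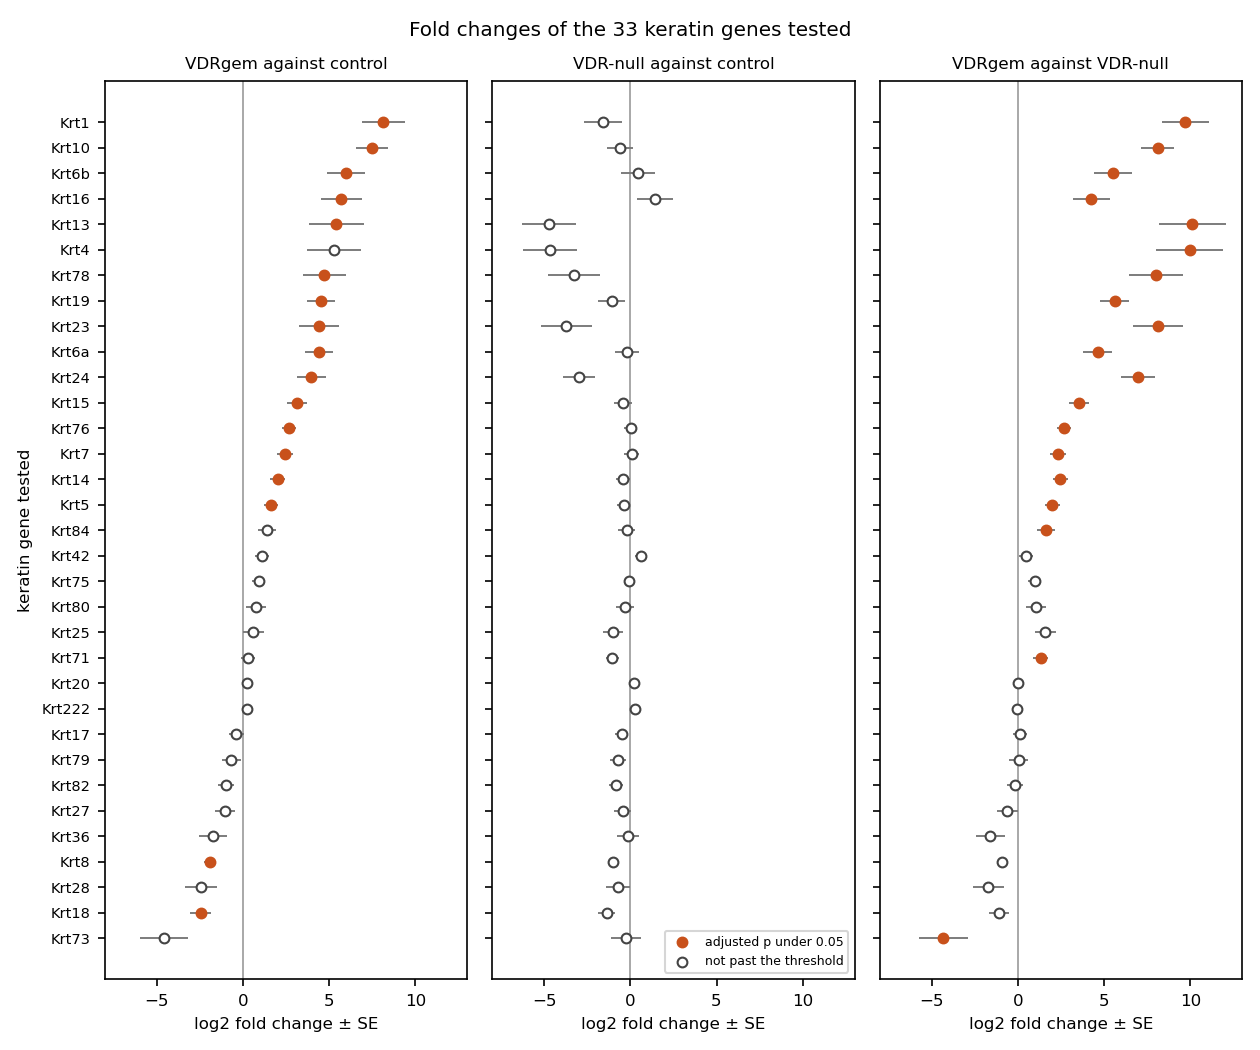
Log2 fold changes with their SE (bars) for the 33 keratin genes tested in edgeR, in the 3 comparisons, ordered by the value in VDRgem against control. Filled points had an adjusted p under 0.05: 17 in VDRgem against control, 0 in VDR-null against control and 19 in VDRgem against VDR-null.

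VDR-null teeth had no keratin gene called against controls. The count was 0 of 33 in edgeR, where 1.33% of all genes were called, 0.678% higher and 0.656% lower, and limma-voom also called 0, where it called 1.39% of all genes, while DESeq2 called 4, all lower, Krt4, Krt8, Krt13 and Krt24, where it called 9.77% of all genes. At an unadjusted p under 0.05 there were 7 (edgeR), all with lower values in VDR-null: Krt8, Krt24, Krt13, Krt4, Krt18, Krt71 and Krt23. With an absolute log2 fold change over 0.3 also required, the 7 remained and 13.2% of all genes passed. The median log2 fold change of the 33 was -0.44, against 0.01 over all genes tested. The keratin sum was 541 to 1861 CPM, and VDR-null 5 lay lowest.

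Krt8 and Krt18, lower in VDRgem, also had all their VDR-null values below the lowest control, at no more than 5.44 and 5.47 CPM against at least 5.68 and 5.78 CPM. VDR-null 1 and 4 lay just under the controls, and VDR-null 2 and 3 held 0.591 and 0.848 CPM of Krt18, near the VDRgem values of 0.818 to 2.21 CPM. The log2 fold changes were -0.996 (adjusted p = 0.0664, SE 0.27) for Krt8 and -1.36 (adjusted p = 0.121, SE 0.49) for Krt18. Without VDR-null 4, edgeR called Krt8. The mutants share their control libraries, so these values are set side by side only. Krt10 had 2.34 to 3.84 CPM in VDR-null, under the lowest control at 4.05 CPM, with a log2 fold change of -0.60 (adjusted p = 0.679, SE 0.76).

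Of the oral mucosa keratins, Krt13, Krt4 and Krt24 had lower means in VDR-null without being called in the main fit, and controls were uneven. Krt13 had a log2 fold change of -4.69 (adjusted p = 0.103, SE 1.56) and Krt4 of -4.68 (adjusted p = 0.105, SE 1.57), and for both the VDR-null values overlapped those of controls 2, 3 and 5. Krt24 had 0.143 to 0.407 CPM in VDR-null and 0.273 to 5.03 CPM in controls, with a log2 fold change of -2.99 (adjusted p = 0.0858, SE 0.92), and edgeR called it without VDRgem 3 or without VDRgem 1 and 2. VDRgem libraries enter this comparison by way of the common dispersion, filter and scaling alone. The wound keratins Krt6a, Krt6b and Krt16 were highest in VDR-null 4, at 68.7, 9.42 and 22.2 CPM, above every control, and within the control range in the other 4 VDR-null libraries or below it. Krt76 was the member nearest to no difference, with 0.789 to 1.70 CPM in VDR-null and a log2 fold change of 0.01 (adjusted p = 0.99, SE 0.37).

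**Figure D4:**
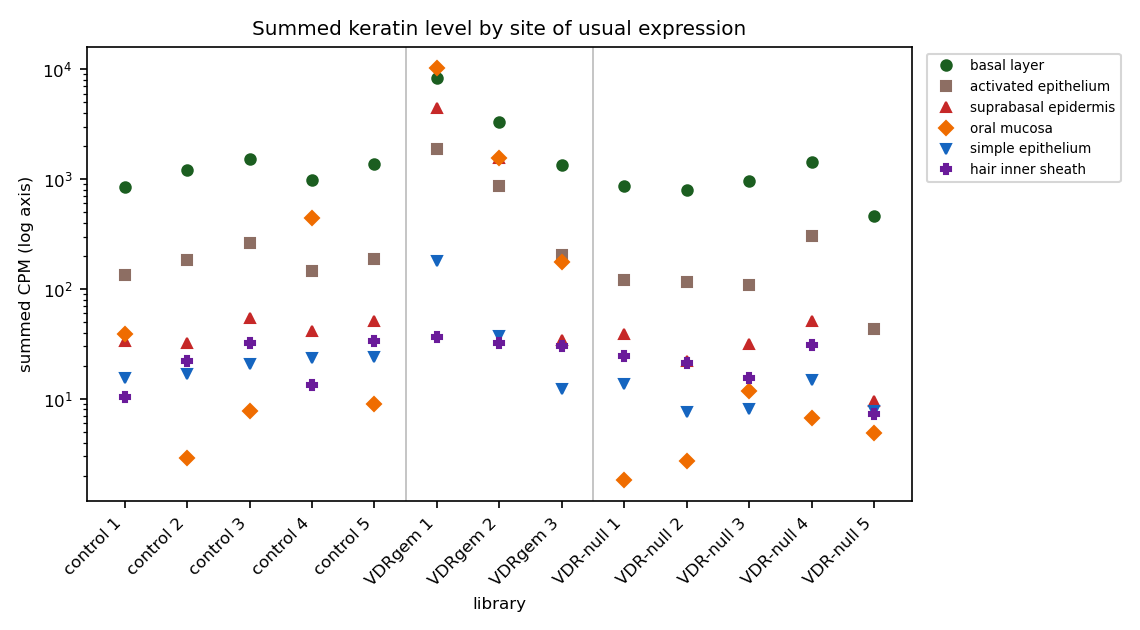
Summed CPM on a log axis for 6 groups of keratin genes in each library, with vertical lines between genotypes. The oral mucosa group spans 2.89 to 440 CPM in controls, 175 to 10345 CPM in VDRgem and 1.82 to 11.9 CPM in VDR-null. The hair inner sheath group lies between 7.28 and 36.7 CPM in all 13 libraries. Its sum is mostly Krt75, at 28.3 to 31.6 CPM in VDRgem. It hides Krt73 and Krt28, whose VDRgem values lay below every control.

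Compared with each other, the mutants differed in 19 of the 33 members, 18 higher in VDRgem and 1 lower, where 18.8% of all genes were called, 10.6% higher and 8.18% lower. The median log2 fold change was 1.62, against -0.02 over all genes tested. In 14 members every VDRgem library exceeded every VDR-null one. The share of all genes that did so was not computed, so this count has no background beside it. By the looser selection stated with the series, which takes genes past 0.3 in absolute log2 value at an unadjusted p under 0.05, 22 members passed here where 27.5% of all genes did, 23 in VDRgem against controls where 19% did, and 7 in VDR-null against controls where 13.2% did. All 4 oral mucosa keratins were higher in VDRgem. The log2 fold change was 10.10 (adjusted p = 0.00602, SE 1.94) for Krt13 and 9.97 (adjusted p = 0.0062, SE 1.93) for Krt4. It was 6.96 (adjusted p = 0.00197, SE 0.99) for Krt24 and 2.68 (adjusted p = 0.00243, SE 0.40) for Krt76. VDRgem 3, near the controls in the sum, held 75.4 CPM of Krt13 and 93.8 CPM of Krt4 against at most 5.74 and 5.05 CPM in any VDR-null library. Krt73 was the 1 member lower, with a log2 fold change of -4.31 (adjusted p = 0.0456, SE 1.39), although VDR-null 2, 3 and 5 held no more than 0.251 CPM. That call was lost without control 2, 3 or 5, without VDR-null 1 or 4 and without any 1 VDRgem library. Krt84, of the hair shaft, and Krt71, of the inner sheath, were higher with log2 fold changes of 1.62 (adjusted p = 0.0424, SE 0.51) and 1.33 (adjusted p = 0.0498, SE 0.44), and each lost its call in 10 of the 13 fits without 1 library. Krt8 and Krt18 were not called, with log2 fold changes of -0.89 (adjusted p = 0.0716, SE 0.33) and -1.08 (adjusted p = 0.209, SE 0.59). Without VDRgem 1, 12 members were called, where 2.39% of all genes were, and Krt73 was not among them. Without VDRgem 1 and 2, 1 was called, Krt10, where 0.168% of all genes were.

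Genes that work with keratin filaments were read from lists chosen for their function, with earlier results of these data known. Their counts are therefore given as description. Of the 15 desmosome genes, 10 rose in VDRgem against controls and 0 fell, with a median log2 fold change of 1.57. Over all genes tested 4.8% were called higher and the median was 0.00, and the counts of the other lists in this comparison stand beside the same background. The smallest p-values were those of Dsc2 and Dsg3, desmosomal cadherins, at 2.64 (adjusted p = 0.00982, SE 0.47) and 2.94 (adjusted p = 0.00982, SE 0.52), with Dsc2 at 360, 153 and 45.9 CPM in VDRgem and 24.6 to 34.4 CPM in controls. Of the 8 hemidesmosome genes 0 were called in edgeR, with 0.17 as the median, and at an unadjusted p under 0.05 there were 4 (DESeq2 and limma-voom also called 0). At that unadjusted threshold and an absolute log2 fold change over 0.3 together, 19% of all genes passed in edgeR. Of the 14 cornified envelope and filament-bundling genes tested, of 20 listed, 9 rose and 0 fell, with a median of 4.10; among them were Sbsn at 3.42 (adjusted p = 0.00982, SE 0.61) and the envelope protein loricrin, Lor, at 5.55 (adjusted p = 0.0155, SE 1.16). Among 11 regulators of stratified epithelium 4 rose, Grhl1, Klf5, Foxn1 and Hoxc13, and Trp63, the regulator of basal epithelial identity, was not called at 0.09 (adjusted p = 0.866, SE 0.24). Of 6 keratin-binding and organising proteins 3 rose, Eppk1, Trim29 and Pof1b, with Eppk1, which ties keratin filaments into bundles, at 3.00 (adjusted p = 0.00951, SE 0.51). The 10 other cytoplasmic intermediate filaments had 0 called in edgeR and 1, Des, at an unadjusted p under 0.05 (DESeq2 and limma-voom called 0), with vimentin at 1604 to 2001 CPM in VDRgem and 1340 to 1777 CPM in controls.

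These counts also rested on VDRgem 1. Without it 0 desmosome, 0 cornified envelope, 0 regulator and 0 keratin-binding genes were called against controls (edgeR), where 0.364% of all genes were, with median log2 fold changes of 0.70, 1.95, 0.49 and 0.60. With all libraries DESeq2 called 10, 9, 5 and 3 of them, where it called 12.6% of all genes, and limma-voom 3, 0, 1 and 0, where it called 5.5%. Against VDR-null, 12 desmosome, 10 cornified envelope, 6 regulator and 4 keratin-binding genes were higher in VDRgem with all libraries, where 10.6% of all genes were, and 4, 7, 0 and 2 without VDRgem 1, where 2.39% of all genes were called in either direction. Against controls, VDR-null had 0 genes called in edgeR and in limma-voom in each of these 6 lists. At an unadjusted p under 0.05 edgeR gave 5 cornified envelope genes, 3 other intermediate filaments and 1 hemidesmosome gene, and 0 in the other 3 lists. With an absolute log2 fold change over 0.3 added to that threshold, 13.2% of all genes passed. DESeq2 called 4 cornified envelope genes in that comparison, Tgm3 higher and Cnfn, Sprr1a and Sprr3 lower.

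**Figure D5:**
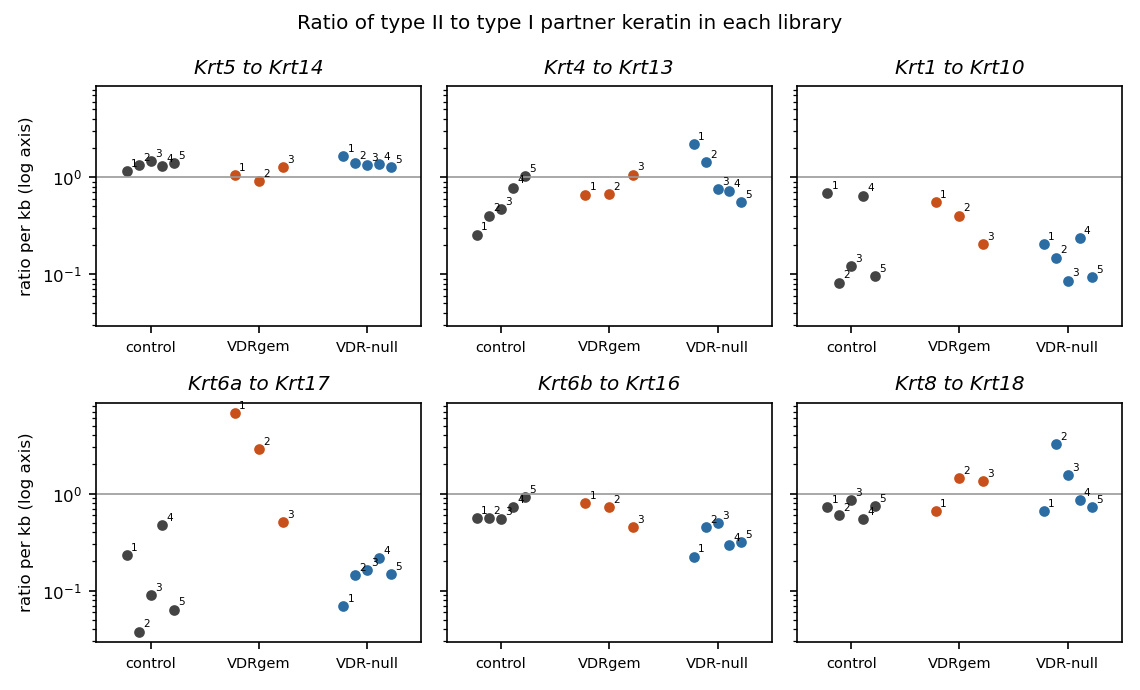
Ratio of the CPM per kb of a type II keratin to that of a type I partner, on a log axis, 1 point per library labelled with its replicate number, with a line at a ratio of 1. Krt5 to Krt14 stays between 0.90 and 1.63 in all libraries, and Krt6a to Krt17 reaches 6.71 in VDRgem 1 and is at most 0.47 in controls.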

How the data were processed

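Stranded poly-A RNA libraries of 13 whole lower incisors were prepared from 300 ng RNA each and amplified over 12 PCR cycles, per the labels' protocols. The values are unscaled counts, deposited by the authors. The submitters' processing notes list bcl2fastq (2.20.0.422), STAR (2.5.3a), HTSeq (0.6.1p1) and the mm10 build. Annotation release, counting mode and strand setting were not stated in these notes or the labels. Totals ran from 20405188 to 87783466, so a count of 0 allows up to 0.0342 to 0.147 CPM (3 counts, counting error only).

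Symbols, coordinates and exon lengths came from GENCODE M21 (GRCm38). A single model with 1 mean per genotype was fitted in edgeR 4.0.16 (R 4.3.3), using TMM factors, filterByExpr (minimum count 10) and the quasi-likelihood F test, with Benjamini-Hochberg adjustment over 17837 genes. It was first tested on simulated data. Levels per kb use the union of exons. SD is the spread between libraries. Values in every library are given for members called in a comparison (up to 8 of smallest p per direction), the 6 with the highest control level per kb, partner keratins, and keratins reported from enamel organ or hair follicle. Others are given by range, and several were named after their values were seen. The members and lists were chosen with earlier results of these data known. The summed level of the dental epithelium marker list is not reported here. Alternatives were other size factors, DESeq2 1.42.0, limma-voom (limma 3.58.1), other filters, thresholds and dispersions, only the groups compared, lengths of the longest transcript, and leaving out each library or VDRgem 1 and 2 together. Counts per gene list without VDRgem libraries or by other tools were added after seeing the data. Plots used matplotlib 3.10.9 under Python 3.11.15.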

Additional observations from a re-analysis of the deposited data

Results flagged for a closer look

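Among 66 sets of 5 libraries, the controls and the VDR-null libraries of the 33 keratin genes tested, 2 held a library far from the rest, where chance gives about 1 in 20. Krt15 was low in control 1, at 21.0 CPM against 42.1 to 52.1 CPM in the other 4 controls, a gap of 0.765 of the whole range on the log2 scale. Krt20 was high in VDR-null 3, at 0.404 CPM against 0.269 to 0.301 CPM in the other 4, a gap of 0.728 of the range.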

How the results depend on the processing

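For VDRgem against control, 17 keratin genes were called, 11 with limma-voom and 5 at an adjusted p under 0.01. Leaving out each library gave 3 to 22, the lowest without VDRgem 1, and without VDRgem 1 and 2 together 0 were called. The other alternatives gave 13 to 23. For VDR-null against control, 0 were called, 4 with DESeq2, 1 with only the 2 groups compared, 1 without VDRgem 1 and 2 together, 2 at an adjusted p under 0.1, and 7 by the selection stated with the series (unadjusted p under 0.05 and absolute log2 fold change over 0.3). Leaving out each library gave 0 to 1, with 1 without VDRgem 3 (Krt24) and 1 without VDR-null 4 (Krt8). For VDRgem against VDR-null, 19 were called, 12 to 22 leaving out each library, and 1 without VDRgem 1 and 2 together. The fit without VDRgem 1 and 2 turned the sign of Krt23 (-0.64), Krt78 (-1.38) and Krt84 (-0.24) against control and of Krt84 (-0.014) against VDR-null. The Vdr difference between VDR-null and control, 0.56, passed the threshold with DESeq2 (0.56), with only the 2 groups compared (0.55), without VDRgem 1 (0.56) and without VDRgem 1 and 2 (0.56), and ran from 0.50 to 0.62 leaving out each library. The cause of these changes was not tested, beyond there being fewer libraries in a fit. No paired analysis was possible because the labels give no replicate numbers that groups share. The 12 members with enough counts in too few libraries were not tested by edgeR at the filter used.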
